A study of Mus musculus with 2 samples.

Results

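Regulatory T cells are the CD4 T cells that restrain other lymphocytes, and they are recognised by a small set of genes besides the lineage factor itself. The genes described here are 10 such identity genes, Foxp3, Ikzf2, Ikzf4, Nfil3, Nt5e, Lrrc32, Izumo1r, Gpr83, Il1rl1 and Capg. They were taken by symbol from the 30905 genes of the deposited count tables, and all 10 had UMIs in both libraries. The choice was made with earlier results of these data known, so counts of members are a description. The study compared splenic CD3+ T cells of Prmt5 CKO mice, in which CD4-Cre deletes a floxed Prmt5, with those of control mice, all on the C57BL/6 strain and all profiled with the 10x Genomics 3' V3.1 chemistry. PRMT5 is the main enzyme that symmetrically dimethylates arginines. CD4-Cre acts in thymocytes that express both CD4 and CD8, so both lineages of alpha-beta T cells carry the deletion in the CKO mice. The design text gives 3 mice per group, but each group is 1 library with no map from cells to mice, and the ages are not given. The genotype entry reads the same for both samples, so the groups were taken from the sample titles.

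FOXP3 is the transcription factor that fixes the regulatory lineage. Helios (Ikzf2) and Eos (Ikzf4) are zinc finger factors of the Ikaros family, of which Eos is known as a partner of FOXP3 in silencing other genes, while NFIL3 is a leucine zipper factor best known from innate lymphocytes. At the cell surface, CD73 (Nt5e) makes adenosine from AMP, GARP (Lrrc32) holds latent TGF-beta, folate receptor 4 (Izumo1r) marks regulatory and anergic CD4 cells, GPR83 is a G protein-coupled receptor enriched in regulatory cells, and ST2 (Il1rl1) is the receptor for IL-33. CapG caps the ends of actin filaments.

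The CKO library held 7896 barcodes and 52387620 UMIs, and the control library 7407 barcodes and 48273424 UMIs. After filtering, 7563 CKO and 6617 control T cells remained. With 1 library per group there was no test between genotypes. All intervals are exact, at 95%, and reflect counting error alone. A difference between mouse genotypes cannot be told apart from a difference between libraries. Both libraries mixed cells of male and female mice. A UMI of a Y-linked gene was seen in 32.7% of CKO and 27.5% of control T cells. A UMI of Xist, a transcript of female cells, was seen in 47.0% of CKO and 50.7% of control T cells. The libraries shared 11 barcodes as deposited. The doublet caller marked 0 cells in either library and so had not worked, and doublets remain among the cells.

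Foxp3-positive CD4 cells are cells of the naive-like, memory-like or Treg-like CD4 clusters with at least 1 Foxp3 UMI, and the other CD4 cells are those of the same clusters with none. The CKO library had 374 Foxp3-positive CD4 cells and the control library 386, with median depths of 6180.5 and 6166.5 UMIs. Levels are given as UMIs per 1000000 UMIs of a set of cells (CPM). Prmt5 itself had 7 UMIs (2.42 CPM) in the CKO set and 44 UMIs (15.3 CPM) in the control set. Whether these 3' tags lie inside the deleted stretch is not given in the sources used here. Levels are 3' tags, so levels are compared between sets of cells and not between genes.

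Promoters are shown for Nt5e, Nfil3 and Il1rl1, the members whose levels in Foxp3-positive cells were farthest apart between the libraries. The RefSeq promoter table for GRCm38.p6 matched 7 of the 10 members. Ikzf2, Ikzf4 and Lrrc32 are named only. Each sequence runs 5' to 3' on the gene's strand from 250 bases before to 50 bases after the start. It is in lower case, and capitals mark matches on either strand to the motifs searched. These were the forkhead core, spelled GTAAACA, the site of GATA factors, spelled AGATAA here, and the cyclic AMP response half-site, spelled TGACGT. The TATA box, spelled TATAAA, and the core bound by ETS factors, spelled CCGGAAGT, were searched as well, and the motifs do not overlap one another in these windows. The Nt5e stretch is chr9:88327359-88327658 on the plus strand, that of Nfil3 is chr13:52980990-52981289 on the minus strand, and those of the Il1rl1 starts are chr1:40429320-40429619 and chr1:40439379-40439678 on the plus strand.
Nt5e: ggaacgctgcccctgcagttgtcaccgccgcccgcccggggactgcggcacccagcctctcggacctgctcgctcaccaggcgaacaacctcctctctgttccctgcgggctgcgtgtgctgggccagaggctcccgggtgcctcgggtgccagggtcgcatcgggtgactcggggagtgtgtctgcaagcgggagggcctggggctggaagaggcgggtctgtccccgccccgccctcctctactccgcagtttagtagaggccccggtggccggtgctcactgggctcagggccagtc
Nfil3: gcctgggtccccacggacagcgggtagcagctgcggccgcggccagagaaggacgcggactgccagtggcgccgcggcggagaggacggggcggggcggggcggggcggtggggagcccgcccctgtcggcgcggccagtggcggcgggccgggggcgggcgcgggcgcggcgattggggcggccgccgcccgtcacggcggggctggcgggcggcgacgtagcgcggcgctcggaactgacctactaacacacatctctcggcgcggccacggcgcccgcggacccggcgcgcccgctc
Il1rl1 first start: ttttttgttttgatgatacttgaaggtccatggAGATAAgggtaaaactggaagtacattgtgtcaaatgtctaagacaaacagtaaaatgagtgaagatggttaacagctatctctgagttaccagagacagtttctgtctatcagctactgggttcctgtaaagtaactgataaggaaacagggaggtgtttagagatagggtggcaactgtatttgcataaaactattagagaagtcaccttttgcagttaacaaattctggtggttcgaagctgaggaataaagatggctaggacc
Il1rl1 second start: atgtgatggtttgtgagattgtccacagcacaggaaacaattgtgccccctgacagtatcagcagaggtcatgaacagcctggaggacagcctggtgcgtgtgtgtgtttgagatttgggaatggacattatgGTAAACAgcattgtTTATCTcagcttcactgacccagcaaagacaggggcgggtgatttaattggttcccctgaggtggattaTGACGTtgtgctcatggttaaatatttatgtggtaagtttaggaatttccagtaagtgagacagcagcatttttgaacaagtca

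Of the 3 genes shown, the 2 lower in CKO cells had promoters rich in G and C. G and C made up 71.0% of the Nt5e stretch, with 23 CpG, and 81.7% of the Nfil3 stretch, with 54 CpG. The median over all 32851 promoters of the table was 52.7%. The Il1rl1 stretches were poorer, with 38.7% and 1 CpG at the first start and 44.7% and 3 CpG at the second. The other matched members did not sort this way. Gpr83 and Capg, higher in CKO by less than 1.5-fold, had 67.0% and 58.0%. Izumo1r, lower by less than 1.5-fold, had 52.3%, and the Foxp3 starts had 40.7% and 47.7%. A link between base content and direction was not tested. No listed motif was found in the Nt5e and Nfil3 windows. The first Il1rl1 window held 1 GATA match, and the second held a forkhead core, a GATA match on the minus strand and a cyclic AMP response half-site. Of all promoters of this length, 3.65% held the forkhead core, 11.2% the GATA match, 7.51% the half-site, 13.6% the TATA box and 3.89% the ETS core.

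On the mm10 build, Foxp3 lies at chrX:7573644-7595245 and overlaps Ppp1r3f and Ccdc22 on the opposite strand and the noncoding gene Flicr on its own strand, all present in the files. Ikzf2 lies at chr1:69531214-69687245 and overlaps Gm29114. Ikzf4 lies at chr10:128630843-128645991 and overlaps Gm26876. No annotated gene overlaps the other members, which lie at chr9:88327197-88372092 (Nt5e), chr7:98489283-98502181 (Lrrc32), chr9:14885814-14903949 (Izumo1r), chr9:14860210-14870789 (Gpr83), chr1:40429570-40465415 (Il1rl1), chr6:72544391-72562983 (Capg) and chr13:52967209-52981073 (Nfil3). Gpr83 and Izumo1r are neighbours, 15024 bp apart. Reads of Foxp3 and Flicr share a strand and cannot be told apart with certainty where the genes overlap. Strand use in the counting is not given in the sources used here, so the same holds for Ppp1r3f and Ccdc22. In Foxp3-positive cells Flicr had 35 UMIs in CKO and 40 UMIs in control, Ppp1r3f 30 and 36 UMIs, and Ccdc22 83 and 72 UMIs, while Gm29114 and Gm26876 had at most 4.

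Foxp3 UMIs were found in 424 of 7563 CKO T cells (5.61%, interval 5.10 to 6.15%) and in 411 of 6617 control T cells (6.21%, interval 5.64 to 6.82%). Thinned to 2000 UMIs per cell, the CKO share was 2.88% and the control share 3.05%, a ratio of 0.945. The unthinned ratio was 0.903 with an interval of 0.786 to 1.04, which holds 1. The thinned ratio was 1.06 with at least 2 Foxp3 UMIs as the requirement, 0.848 in cells with a Y-linked UMI, and 0.864 in cells that had 1000 genes or more and less than 5% of mitochondrial UMIs. That stricter filter kept 5635 of the 7563 CKO and 3060 of the 6617 control T cells, so it removed a larger part of the control library. With it the unthinned ratio was 0.833 with an interval of 0.704 to 0.987, off 1. Whether this counting interval held 1 thus depended on the filter, and no difference is read from it. Within Foxp3-positive CD4 cells, which Foxp3 itself chose, its level was 341 CPM in CKO and 309 CPM in control.

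Most of these cells lay in the clusters named Treg-like, which held 312 of the 424 CKO cells (73.6%) and 339 of the 411 control cells (82.5%). The memory-like CD4 cells held 24 in the CKO library and 10 in the control library, and the proliferating cells 21 and 6. Naive-like CD4 cells contributed 38 of 4285 CKO cells and 37 of 3054 control cells, most of them with a single Foxp3 UMI (81.6% in CKO and 86.5% in control). As background, 8 of 1376 CKO naive-like CD8 cells (0.581%, median 6891 UMIs) and 8 of 1639 control naive-like CD8 cells (0.488%, median 6975 UMIs) had a Foxp3 UMI. In B-like cells that passed the sort the counts were 2 of 72 and 5 of 68, at median depths of 5633 and 4603.5 UMIs. The naive-like CD4 shares, 0.887% in CKO and 1.21% in control, lay above those of the naive-like CD8 cells and below those of the B-like cells. Single B-like cells held up to 5 Foxp3 UMIs in CKO and 6 in control. Doublets remain among the cells, so the B-like shares are not a clean background. Whether the Foxp3 UMIs of naive-like CD4 cells are expression was not tested.

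Every member stood higher in Foxp3-positive than in other CD4 cells, in both libraries. A gene was measured where both sets together held at least 50 UMIs, and was counted as higher at 2-fold or more. By that rule 9 of 9 members other than Foxp3 were higher in the CKO library, where 6.75% of all measured genes were. In the control library 8 of 8 measured members were higher, against 6.28% of all measured genes. The median log2 ratio of the members was 2.73 in CKO and 2.61 in control, beside 0.14 and 0.16 over all measured genes. Of the members, only Foxp3 was used to name the Treg-like clusters, by the share of cells with a Foxp3 UMI. The split of the CD4 cells here also rests on the Foxp3 UMI alone.

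Among the transcription factors, Ikzf2 had 858 CPM in Foxp3-positive and 50.6 CPM in other CKO CD4 cells (log2 4.08), and 877 CPM in Foxp3-positive and 64.0 CPM in other control CD4 cells (log2 3.78). Ikzf4 was higher by 2.95 on the log2 scale in CKO and 2.57 in control. Nfil3 was higher by 1.96 in CKO and 2.26 in control. Lrrc32 had the widest gap of the members measured in both libraries, with 42.3 CPM against 2.11 CPM in CKO (4.33) and 60.2 CPM against 4.07 CPM in control (3.88). Gpr83 was higher by 2.64 and 2.25, Nt5e by 2.23 and 2.66, and Izumo1r by 1.76 and 1.95, in CKO and control. Capg was higher by 2.73 in CKO and 2.75 in control.

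Il1rl1 was close to absent outside the Foxp3-positive cells. It had 94 UMIs in the CKO and 29 UMIs in the control Foxp3-positive cells, against 23 and 6 UMIs in the far more numerous other CD4 cells. The log2 ratios were 5.26 (interval 4.59 to 5.99) in CKO and 5.18 (interval 3.89 to 6.74) in control. The control ratio rests on too few UMIs to count as measured.

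**Figure D1:**
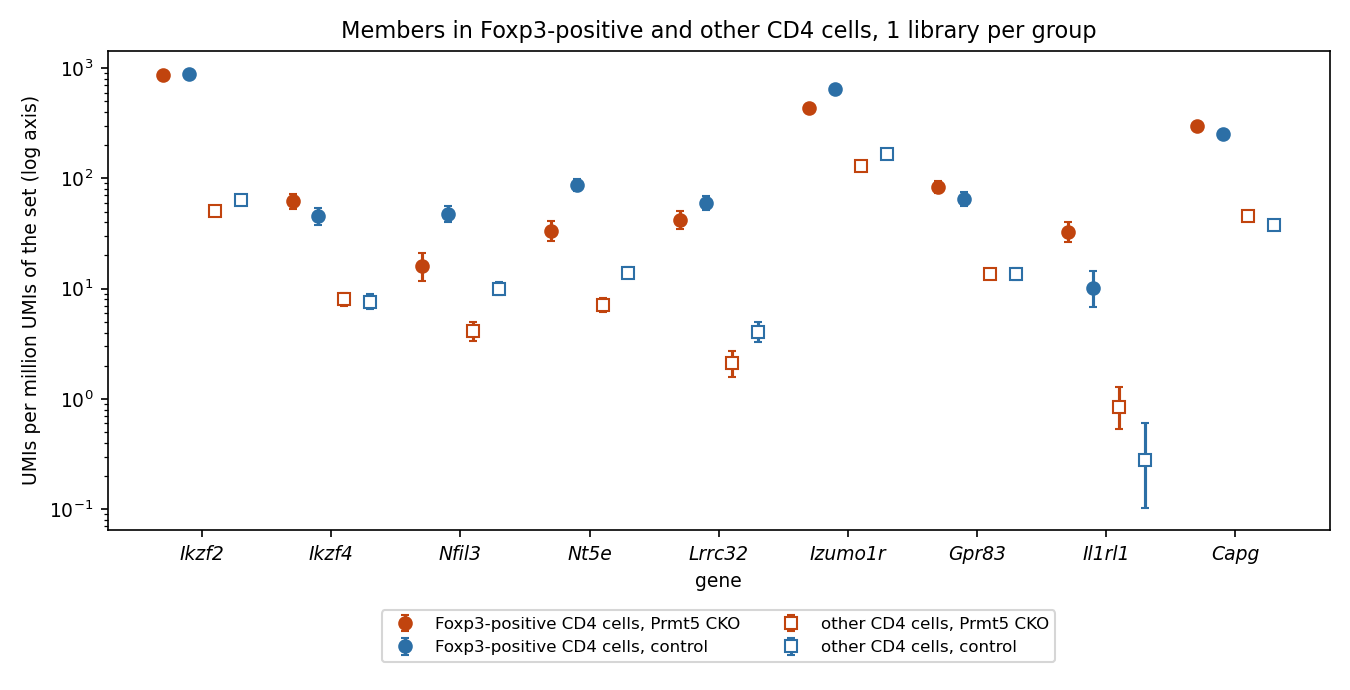
CPM of the 9 members other than Foxp3 (log axis) in Foxp3-positive CD4 cells (filled circles) and other CD4 cells (open squares) of the Prmt5 CKO library (orange) and the control library (blue), with exact 95% Poisson intervals. Filled circles lie above open squares for every member, and Nt5e, Nfil3 and Il1rl1 show the widest gaps between the libraries in Foxp3-positive cells.

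Within Foxp3-positive CD4 cells, the CKO library had less Nt5e and Nfil3 and more Il1rl1 than the control library, while Ikzf2 was nearly equal. A gene was counted as higher or lower in this comparison at 1.5-fold or more. Of the 9 members 1 was higher and 2 were lower, a larger share than the 8.14% of all 7375 measured genes past the same fold in either direction. The background was 3.93% for higher and 4.2% for lower genes. The intervals of 8 of the 9 members lay off 0, and the members' median log2 ratio was -0.03 beside 0.01 over all measured genes. In this set the CKO library also had more UMIs of the effector CD8 markers (1029 against 293 CPM summed over 6 genes, 0 of them at 0 in either library), of which Gzmb and Klrg1 are also genes of effector regulatory cells. The gamma-delta markers summed to 74.1 against 8.70 CPM over 7 genes, of which 2 were at 0 in CKO and 4 in control. The NK markers summed to 14.2 against 1.74 CPM over 5 genes, with 2 and 3 at 0. Their part in the members' differences was not tested.

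Of the transcription factors, Ikzf2 had 2476 UMIs (858 CPM) in the CKO and 2522 UMIs (877 CPM) in the control cells, a log2 ratio of -0.03 with an interval of -0.11 to 0.05. Cells with a UMI made up 80.2% of the CKO and 78.5% of the control set. A difference in the Helios transcript was thus not detectable at this depth. Ikzf4 had 179 UMIs (62.0 CPM) in CKO and 130 UMIs (45.2 CPM) in control, a log2 ratio of 0.46 with an interval of 0.12 to 0.79. It stood at -0.06 when CD4 cells were taken by gates on Cd4, Cd8a and Cd8b1 UMIs in place of clusters, so its direction depended on that choice. Nfil3 had 46 UMIs (15.9 CPM) in CKO and 138 UMIs (48.0 CPM) in control, 3.01-fold lower in CKO (log2 -1.59, interval -2.11 to -1.10). That placed Nfil3 at rank 7369 of the 7375 measured genes, counted from the most raised in CKO. The share of cells with an Nfil3 UMI was 8.02% in CKO and 20.2% in control, and 2.42% and 8.06% after thinning to 2000 UMIs.

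Nt5e, which encodes the enzyme for the last step to adenosine, had 97 UMIs (33.6 CPM) in the CKO and 253 UMIs (88.0 CPM) in the control Foxp3-positive cells. It was 2.62-fold lower in CKO, with a log2 ratio of -1.39 (interval -1.74 to -1.05) and rank 7362 of 7375. An Nt5e UMI was seen in 56 of 374 CKO cells and 141 of 386 control cells (36.5%), and in 5.24% and 15.6% after thinning, for which 4 CKO and 6 control cells were too shallow. Izumo1r had 1268 UMIs (439 CPM) in CKO and 1852 UMIs (644 CPM) in control (log2 -0.55, interval -0.66 to -0.45). A UMI was seen in 75.7% of the CKO and 85.8% of the control set, and its interval crossed the 1.5-fold line. Lrrc32 had 122 UMIs (42.3 CPM) in CKO and 173 UMIs (60.2 CPM) in control (log2 -0.51, interval -0.86 to -0.17), with a UMI in 22.2% of the CKO and 28.5% of the control set. All 3 of these surface genes were thus lower in CKO, Nt5e past the fold and the others short of it. Counted in cells with a Y-linked UMI only, 5 members passed the fold, with Lrrc32 at -0.73 and Izumo1r at -0.59 added. With the UMI gates the count was also 5, with Lrrc32 at -0.83 and Izumo1r at -0.69.

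Gpr83 had 242 UMIs (83.8 CPM) in the CKO and 186 UMIs (64.7 CPM) in the control cells, a log2 ratio of 0.37 (interval 0.09 to 0.66). Capg had 865 UMIs (299.7 CPM) in CKO and 734 UMIs (255 CPM) in control, a log2 ratio of 0.23 (interval 0.09 to 0.37). Both were higher in CKO by less than 1.5-fold. Il1rl1 had 94 UMIs (32.6 CPM) in CKO and 29 UMIs (10.1 CPM) in control, 3.23-fold higher in CKO (log2 1.69, interval 1.08 to 2.34), at rank 19 of 7375. Cells with a UMI were 43 of 374 (11.5%) in CKO and 16 of 386 (4.15%) in control, and in 4.45% and 1.61% after thinning. In cells with a Y-linked UMI the log2 ratio of Il1rl1 was 3.50, with an interval of 1.83 to 5.84. In the B-like cells an Nt5e UMI was seen in 2.78% of CKO and 1.47% of control cells, and an Nfil3 UMI in 1.39% and 4.41%. An Il1rl1 UMI was seen there in 0 of 72 CKO cells, which allows a share of up to 4.17%, and in 1.47% of control cells.

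**Figure D2:**
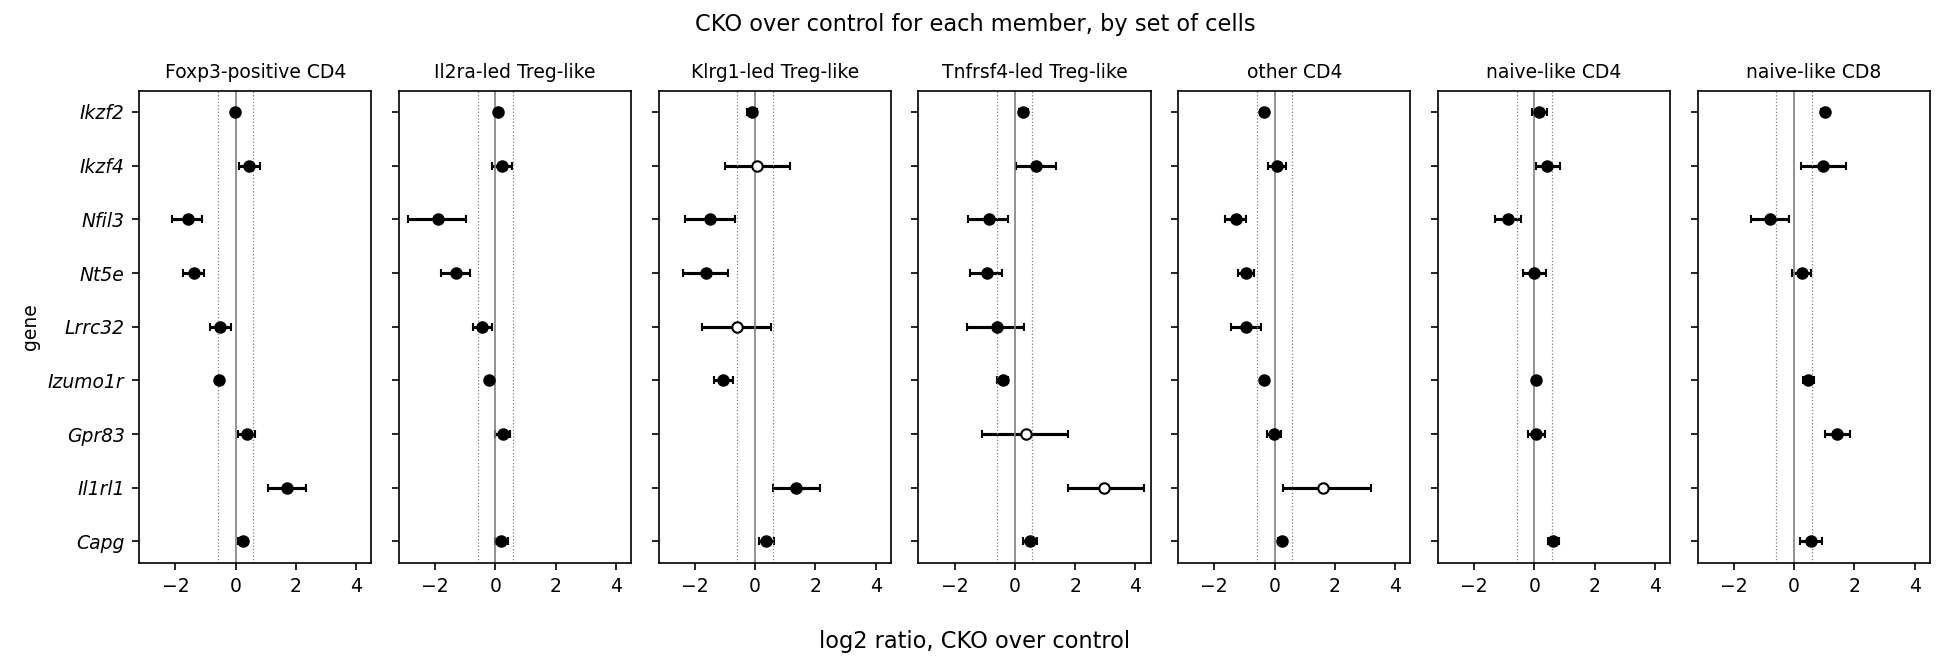
Log2 ratio of CKO over control for each member, by set of cells, with exact 95% intervals. Open circles are members with 20 to 49 UMIs over both libraries, members with fewer are not drawn, and dotted lines mark 1.5-fold. Nfil3 lies left of 0 in every panel, Nt5e lies left of 0 in the first 5 panels and near or right of it in naive-like CD4 and CD8 cells, and Ikzf2 stands at 1.04 in naive-like CD8 cells.

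The Treg-like cells fell into 3 clusters, led by Il2ra (385 CKO and 362 control cells), Klrg1 (55 and 59 cells) and Tnfrsf4 (55 and 122 cells). The clustering used the members too, so their levels between clusters describe the clusters and are not a result. Gpr83 was low in the Klrg1-led cluster, with 10.3 CPM in CKO and 13.9 CPM in control, against 136 and 116 CPM in the Il2ra-led cluster. Capg and Il1rl1 ran the other way. Capg had 546 CPM in CKO and 421 CPM in control in the Klrg1-led cluster, against 156 and 136 CPM in the Il2ra-led one. Il1rl1 had 102 and 39.7 CPM in the Klrg1-led cluster, and only 6 and 3 UMIs in the Il2ra-led one. When the cells were clustered without the member genes, the Klrg1-led cluster (63 CKO and 78 control cells) still had less Gpr83 than the Il2ra-led one, by -3.29 on the log2 scale in CKO and -2.06 in control. It had more Capg, by 1.78 and 1.60, and more Il1rl1, by 5.17 and 4.87.

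The lower Nt5e and Nfil3 levels of the CKO library were seen in each of these clusters. Nt5e had 21.7 CPM in CKO and 54.0 CPM in control in the Il2ra-led cluster (log2 -1.32), 37.9 and 117 CPM in the Klrg1-led cluster (-1.63), and 93.7 and 179 CPM in the Tnfrsf4-led cluster (-0.93). Nfil3 had 5.21 CPM in CKO and 19.4 CPM in control in the Il2ra-led cluster (-1.89), 32.7 and 91.4 CPM in the Klrg1-led cluster (-1.48), and 64.1 and 116 CPM in the Tnfrsf4-led cluster (-0.86). Counting all measured members, 0 were higher and 2 lower of 8 in the Il2ra-led cluster, where 10.0% of all genes passed 1.5-fold (5.17% higher and 4.84% lower). In the Klrg1-led cluster 1 was higher and 3 lower of 6, where 11.9% of all genes passed (7.57% higher and 4.32% lower). In the Tnfrsf4-led cluster 1 was higher and 3 lower of 7, where 14.0% passed (6.13% higher and 7.86% lower). Izumo1r was lower in CKO by different amounts, at -0.21 in the Il2ra-led, -1.05 in the Klrg1-led and -0.40 in the Tnfrsf4-led cluster. Whether the clusters differed in that ratio was not tested.

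The Il1rl1 UMIs of the Treg-like cells of both libraries lay mainly in the Klrg1-led and Tnfrsf4-led clusters. In the Klrg1-led cluster it had 59 UMIs in CKO and 20 UMIs in control (log2 1.36), with a UMI in 25 of 55 CKO cells (45.5%) and 10 of 59 control cells (16.9%). In the Tnfrsf4-led cluster it had 29 UMIs in 55 CKO cells and 8 UMIs in 122 control cells (log2 2.94, fewer UMIs than needed to count as measured). Foxp3-positive cells of the Il2ra-led cluster alone gave a log2 ratio of 1.47 with an interval of -2.17 to 7.18, too wide to read. Ikzf2, at 782 and 743 CPM in the Il2ra-led, 1101 and 1181 CPM in the Klrg1-led and 1462 and 1209 CPM in the Tnfrsf4-led cluster, was high in every cluster of both libraries.

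Treg-like cells without a Foxp3 UMI (183 CKO and 204 control cells) also held the members. Ikzf2 stood at 789 CPM in CKO and 753 CPM in control, against 974 and 985 CPM in Foxp3-positive Treg-like cells, and Izumo1r at 467 and 595 CPM, against 487 and 683 CPM. Capg was lower than in Foxp3-positive Treg-like cells, with 194 CPM in CKO and 171 CPM in control, against 308 and 271 CPM. These cells had no Foxp3 UMI, but their clusters were named by Foxp3 and were made with the members. In them Nt5e had 26.7 CPM in CKO and 79.4 CPM in control, and Nfil3 had 11.6 and 44.8 CPM. Il1rl1 had 11 UMIs (9.77 CPM) in CKO and 4 UMIs (3.14 CPM) in control, against 35.3 and 10.7 CPM in Foxp3-positive Treg-like cells. The order of the libraries for Nt5e, Nfil3 and Il1rl1 was the same as in the Foxp3-positive cells of the same libraries. Both sets come from the same clusters, so this is a description and not an independent repeat.

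In other CD4 cells the CKO library was lower for Nt5e, Lrrc32 and Nfil3. These were 3 of 8 measured members past 1.5-fold in that direction, with 0 higher, beside 5.86% of all measured genes, 3.25% higher and 2.61% lower. Nt5e had 7.17 CPM in CKO and 13.9 CPM in control (log2 -0.96, interval -1.23 to -0.69). Of these Nt5e UMIs, the Treg-like clusters held 30 of 194 in CKO and 101 of 301 in control. Foxp3-negative cells of the naive-like and memory-like clusters had 6.32 CPM of Nt5e in CKO and 9.84 CPM in control. The part of the cell mix in the Nt5e ratio was not tested. Nfil3 had 4.10 CPM in CKO and 10.0 CPM in control (-1.29, interval -1.63 to -0.95). Lrrc32 had 57 UMIs (2.11 CPM) in CKO and 88 UMIs (4.07 CPM) in control (-0.95, interval -1.46 to -0.46). Nearly all of the Lrrc32 UMIs came from the Treg-like clusters, since Foxp3-negative cells of the naive-like and memory-like clusters had 1 UMI in CKO and 4 UMIs in control. Ikzf2 had 50.6 CPM in CKO and 64.0 CPM in control (-0.34). Of the naive-like CD4 cells, 1 cluster held 1424 CKO and 67 control cells, and without it Lrrc32 stood at -0.38 and Ikzf2 at 0.17 on the other side of 0. Gpr83 (-0.01), Ikzf4 (0.07), Capg (0.26) and Izumo1r (-0.36) differed by less than 1.5-fold.

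Among naive-like CD4 cells, the level of Nt5e was 5.57 CPM in CKO and 5.62 CPM in control (log2 -0.01, interval -0.39 to 0.37). Nfil3 was lower in CKO there too, with 3.25 CPM against 6.00 CPM (-0.89, interval -1.32 to -0.46). Capg was higher, with 32.5 CPM in CKO and 21.0 CPM in control (0.63, interval 0.45 to 0.81). These were 1 lower and 1 higher of 8 measured members, where 5.65% of all measured genes passed the fold, 3.8% higher and 1.85% lower.

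There were 173 CKO and 378 control memory-like CD4 cells, and different clusters held most of them. A cluster with 17 CKO and 193 control cells and another with 6 and 92 cells lay mainly in the control library, and another with 55 and 10 cells mainly in the CKO library. Of 6 measured members 3 were higher and 3 were lower, where 15.7% of all measured genes passed 1.5-fold, 7.45% higher and 8.24% lower. Izumo1r had 98.4 CPM in CKO and 354 CPM in control (log2 -1.85, interval -2.10 to -1.60). Ikzf2 had 194 CPM in CKO and 90.3 CPM in control (1.10, interval 0.85 to 1.36), and Capg 216 and 108 CPM (log2 interval 0.77 to 1.24). Il1rl1 had 21 UMIs in CKO and 3 UMIs in control, too few to count as measured. Foxp3 itself had 71 UMIs (46.0 CPM) in CKO and 33 UMIs (13.1 CPM) in control. Cells with a Foxp3 UMI made up 24 of the 173 CKO cells and 10 of the 378 control cells, and their part in the other members' levels was not tested.

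Across all classes of T cells, Foxp3 was highest in Treg-like cells, with 247 CPM in CKO and 214 CPM in control. Memory-like CD4 cells (46.0 and 13.1 CPM) and proliferating cells (28.4 and 12.8 CPM) followed, and in the control library the intervals of these classes overlapped. The 17 control gamma-delta-like cells had 37.5 CPM from 6 UMIs in 1 cell (interval 13.8 to 81.7 CPM), and the 102 CKO ones 7.55 CPM. Naive-like CD4 cells had 2.09 and 2.37 CPM, and naive-like CD8 cells 0.780 and 0.820 CPM. Lrrc32, Ikzf4, Gpr83 and Il1rl1 were, like Foxp3, highest in Treg-like cells in both libraries. Ikzf4 had 65.5 CPM in CKO and 54.9 CPM in control Treg-like cells, and Lrrc32 had 50.3 and 67.5 CPM.

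Capg, Nfil3 and Ikzf2 were also high in classes outside the Treg-like cells. Capg had 464 CPM in CKO and 300.2 CPM in control gamma-delta-like cells, above the 271 and 237 CPM of Treg-like cells, although the control class held 17 cells with an interval of 221 to 398 CPM. Nfil3 had 85.6 CPM in CKO and 62.5 CPM in control gamma-delta-like cells, against 16.7 and 50.9 CPM in Treg-like cells. The gamma-delta-like order of Nfil3 was thus opposite to the order in Treg-like cells, and the control value rests on 10 UMIs. Ikzf2 was highest in an unnamed class, here the Fcer1g class, with 1268 CPM in CKO and 1163 CPM in control. That was above the 914 and 907 CPM of Treg-like cells. The class pools clusters in which most cells had an Fcer1g UMI. Ikzf2 was used in the clustering and was among the leading genes of some of these clusters. Izumo1r was highest in Treg-like cells, with 480.5 CPM in CKO and 654 CPM in control, against 119 and 115 CPM in naive-like CD4 cells.

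**Figure D3:**
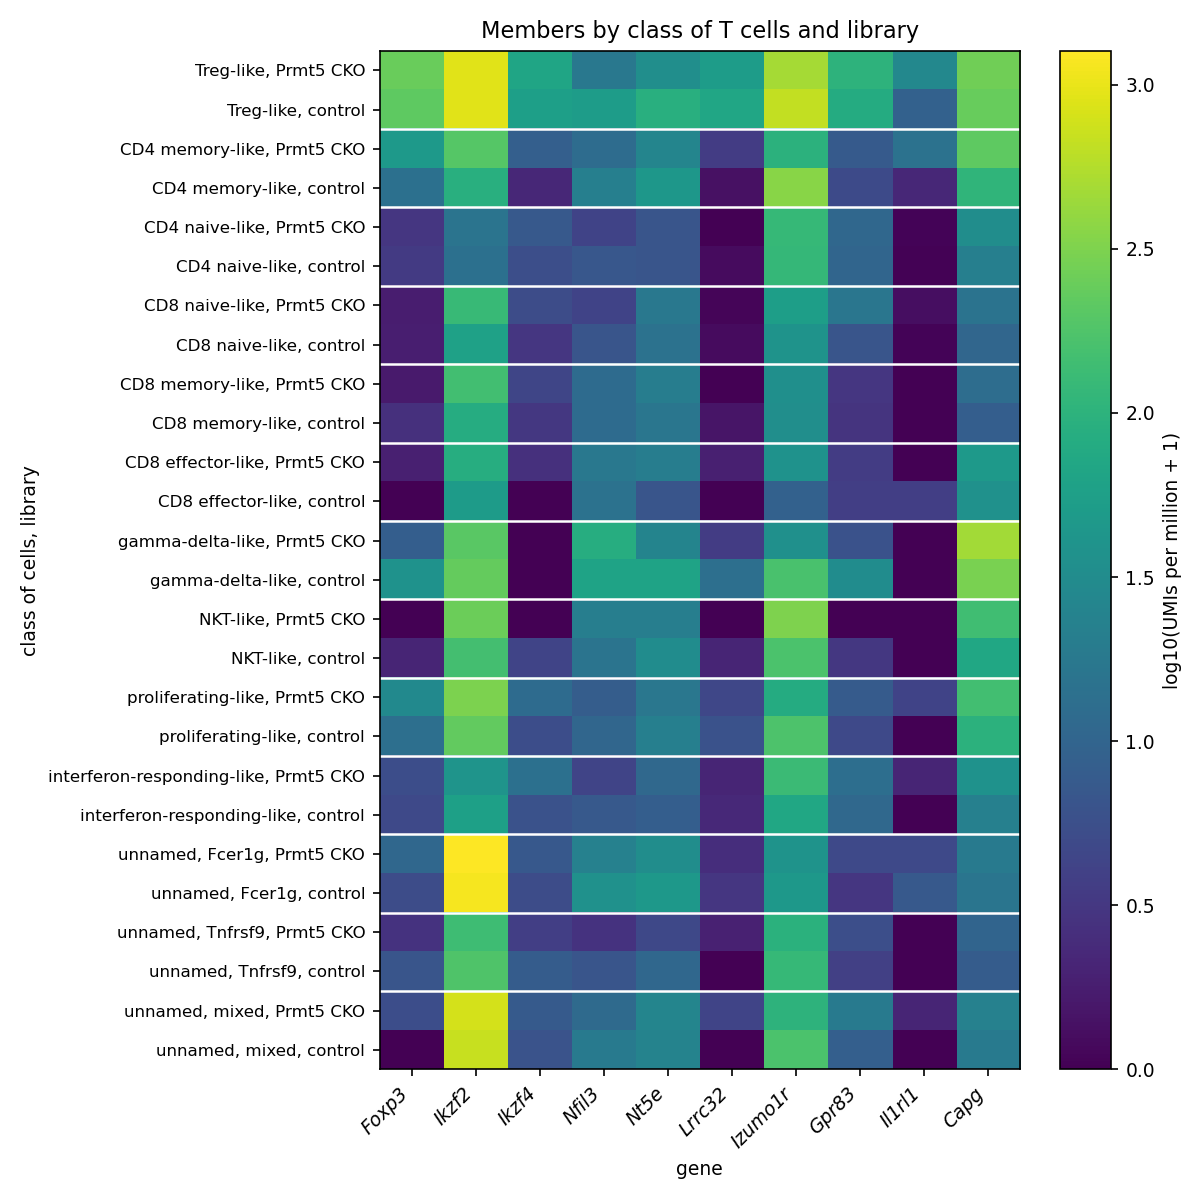
Heat map of log10(CPM + 1) for the 10 members (columns) in each class of T cells, with the Prmt5 CKO library above the control library in each pair of rows. Foxp3, Ikzf4, Lrrc32, Gpr83 and Il1rl1 are brightest in Treg-like cells, Ikzf2 also in the Fcer1g class and Capg also in gamma-delta-like cells.

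Over 18 points of named T cell class and library with at least 30 cells each, the genes whose log2(CPM + 10) ran most like that of Foxp3 among 10421 genes were Tnfrsf4 (Pearson's r 0.962), Ncmap (0.947), Bicd1 (0.938), Vav2 (0.934) and Dst (0.930). Tnfrsf4 reached 441 CPM, while Ncmap, Bicd1 and Vav2 reached at most 11.9, 9.48 and 14.7 CPM, near the 10 CPM added before the log. Among members, Lrrc32 came closest (0.926) and Nfil3 was least alike (0.410). For Ikzf2 the most alike were Coro2a (0.895), Ctsz (0.892), Mmd (0.859), Tnfrsf9 (0.833) and Trp53i11 (0.827). The points share their libraries and the Treg-like cells stand apart from the rest, so these values are a description. The genes with the widest gap between Foxp3-positive and other CD4 cells, by the smaller of the log2 ratios, were Gzmb (5.70 in CKO and 5.53 in control), Klrg1 (5.53 and 8.51), Cxcl2 (5.18 and 4.79), Gzma (5.08 and 4.22), Il2ra (4.20 and 4.17), Cd83 (4.52 and 4.16), Socs2 (4.29 and 4.09), Penk (4.28 and 4.07), Itgae (4.05 and 3.98) and Myo1e (5.03 and 3.89). Lrrc32 at rank 11 and Ikzf2 at rank 15 of 8740 genes followed, and the other measured members lay between rank 39 (Capg) and rank 132 (Izumo1r). The control ratio of Klrg1 rests on a level of 0.185 CPM in other CD4 cells, near the floor, so its size is uncertain.

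In CD8 cells, where Helios is known from regulatory and innate-like subsets, the CKO library had more Ikzf2. All CD8 cells together had 1549 UMIs (120.5 CPM) in the CKO library and 1078 UMIs (64.4 CPM) in the control library, from 1689 and 2103 cells. The ratio was 1.87-fold (log2 0.90, interval 0.79 to 1.02). In naive-like CD8 cells Ikzf2 had 121 CPM in CKO and 59.0 CPM in control (log2 1.04, interval 0.90 to 1.17). The share of these cells with an Ikzf2 UMI was 37.1% in CKO and 21.3% in control, and 17.4% and 8.66% after thinning. A share with a UMI rises with the level, so more cells and more UMIs per cell cannot be told apart here. In B-like cells an Ikzf2 UMI was seen in 6.94% of CKO and 8.82% of control cells, at the shallower depths given above. Memory-like CD8 cells had 144 CPM in CKO and 81.4 CPM in control (0.82, interval 0.57 to 1.08), and effector-like CD8 cells had 85.4 and 49.5 CPM (0.79, interval 0.05 to 1.60).

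Other classes differed in how far apart the libraries were. Treg-like cells stood at 914 CPM in CKO and 907 CPM in control. The Fcer1g class stood at 1268 and 1163 CPM, with a UMI in 90.4% and 89.5% of cells. Gamma-delta-like cells stood at 203 and 231 CPM, and proliferating cells at 307 and 224 CPM. Memory-like CD4 cells (194 and 90.3 CPM) and the few NKT-like cells (254 CPM in 13 CKO cells and 150 CPM in 110 control cells) were farther apart. Whether the ratio differed between classes was not tested. Naive-like CD4 cells had 14.7 CPM in CKO and 13.1 CPM in control. Within naive-like CD8 cells, the 511 CKO and 349 control cells with an Ikzf2 UMI also had more Sox4, a factor of recently generated T cells, than cells without one. Sox4 had 85.3 CPM in Ikzf2-positive and 41.9 CPM in Ikzf2-negative CKO cells, and 63.6 and 32.7 CPM in such control cells. Tox, a factor of developing and chronically stimulated T cells, had 81.2 and 45.8 CPM in CKO and 68.9 and 48.7 CPM in control. The delta constant segment Trdc had 111 and 29.0 CPM in CKO and 51.1 and 8.25 CPM in control. Trdc was higher in CKO than in control in both kinds of cell. Over all CD8 cells the gamma-delta markers summed to 175 CPM in CKO and 30.8 CPM in control, with 0 and 1 of 7 at 0, and the effector CD8 markers to 3736 and 1395 CPM, with 0 of 6 at 0. Their part in the Ikzf2 difference was not tested. Ikzf2-positive cells were somewhat deeper, at a median of 7210 and 6789 UMIs in CKO and 7491 and 6862 UMIs in control.

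**Figure D4:**
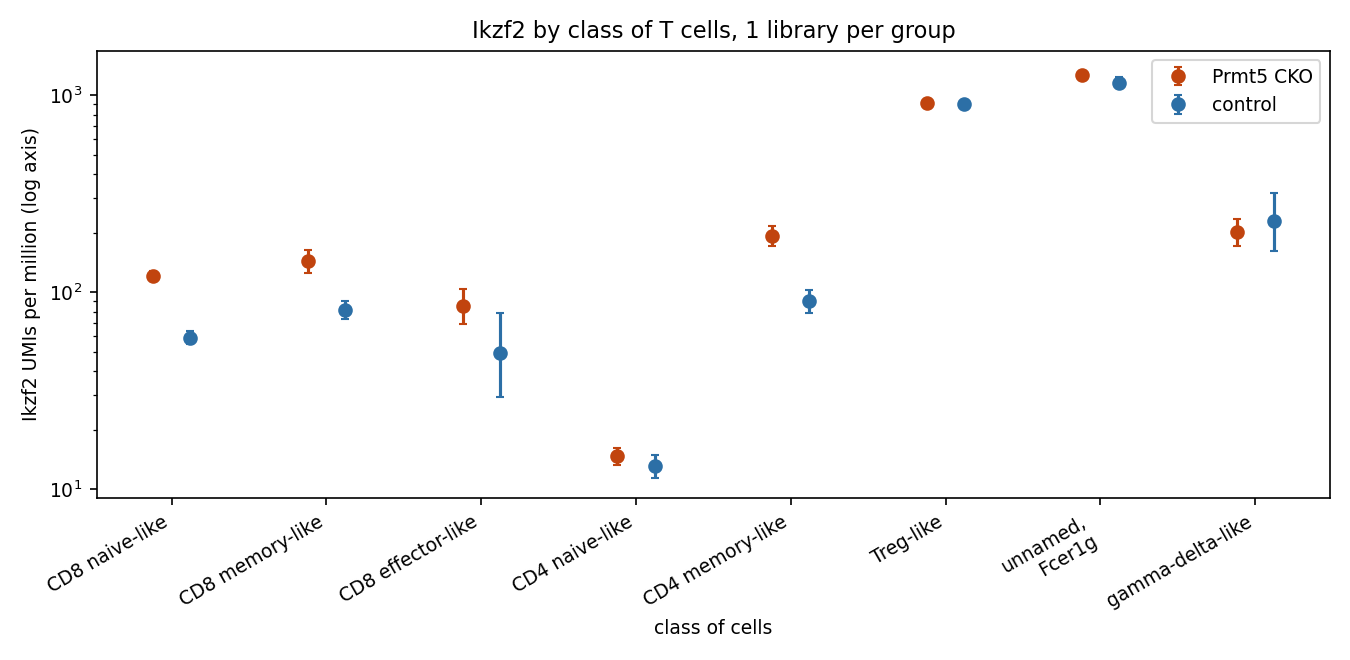
Ikzf2 level in CPM (log axis) in 8 classes of T cells of the Prmt5 CKO library (orange) and the control library (blue), with exact 95% Poisson intervals. The CKO points lie above the control points in the 3 CD8 classes and in memory-like CD4 cells. The libraries lie close together in naive-like CD4, Treg-like and gamma-delta-like cells and in the Fcer1g class.

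Other members were also higher in CKO CD8 cells, at low levels. Of 7 measured members 4 were higher past 1.5-fold and 0 lower, where 7.74% of all measured genes passed, 5.94% higher and 1.8% lower. The members' median log2 ratio was 0.80 and that of all genes 0.09. Gpr83 had 163 UMIs (12.7 CPM) in CKO and 78 UMIs (4.66 CPM) in control (log2 1.44, interval 1.05 to 1.85). Almost all came from naive-like CD8 cells, with 157 and 69 UMIs, where Gpr83 ranked 26 of 9221 genes. Ikzf4 had 50 UMIs in CKO and 35 UMIs in control (0.90, interval 0.24 to 1.56), and Capg 217 and 162 UMIs (0.80, interval 0.50 to 1.10). In naive-like CD8 cells 3 members were higher and 1 was lower of 7 measured, where 6.9% of all genes passed, 4.87% higher and 2.03% lower. The lower one was Nfil3, with 33 UMIs in CKO and 68 UMIs in control (-0.79, interval -1.44 to -0.17). Nt5e stood at 0.28 (interval 0.01 to 0.56) over all CD8 cells, and was thus not lower in CKO there. Foxp3, at 10 and 17 UMIs, was at background.

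Single cells combined the members in varying ways. Of the 9 members other than Foxp3, a Foxp3-positive CD4 cell held a UMI of 3.37 ± 1.63 members in CKO (SD over 374 cells) and 3.63 ± 1.66 in control (SD over 386 cells). Other CD4 cells averaged 0.770 in CKO and 0.829 in control. After thinning, the means were 1.96 and 2.14 in Foxp3-positive cells, and 0.369 and 0.413 in other cells. At least 4 members were found in 47.1% of CKO and 53.9% of control Foxp3-positive cells, against 1.73% and 3.12% of other cells. Foxp3-positive cells with no other member were 10 in CKO (2.67%) and 13 in control (3.37%).

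Some pairs met more often than their single shares would give. Nt5e and Nfil3 were found together in 10 CKO cells, where independent shares give 4.49, and in 47 control cells, where they give 28.5. Capg and Il1rl1 were found together in 42 CKO cells against 25.9, and in 14 control cells against 9.37. Nearly every Il1rl1-positive cell was thus also Capg-positive, 42 of 43 in CKO and 14 of 16 in control. Gpr83 and Il1rl1 met less often, in 7 CKO cells against 13.1 and in 1 control cell against 4.10. Deeper cells hold more UMIs of every gene, and these counts are a description.

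**Figure D5:**
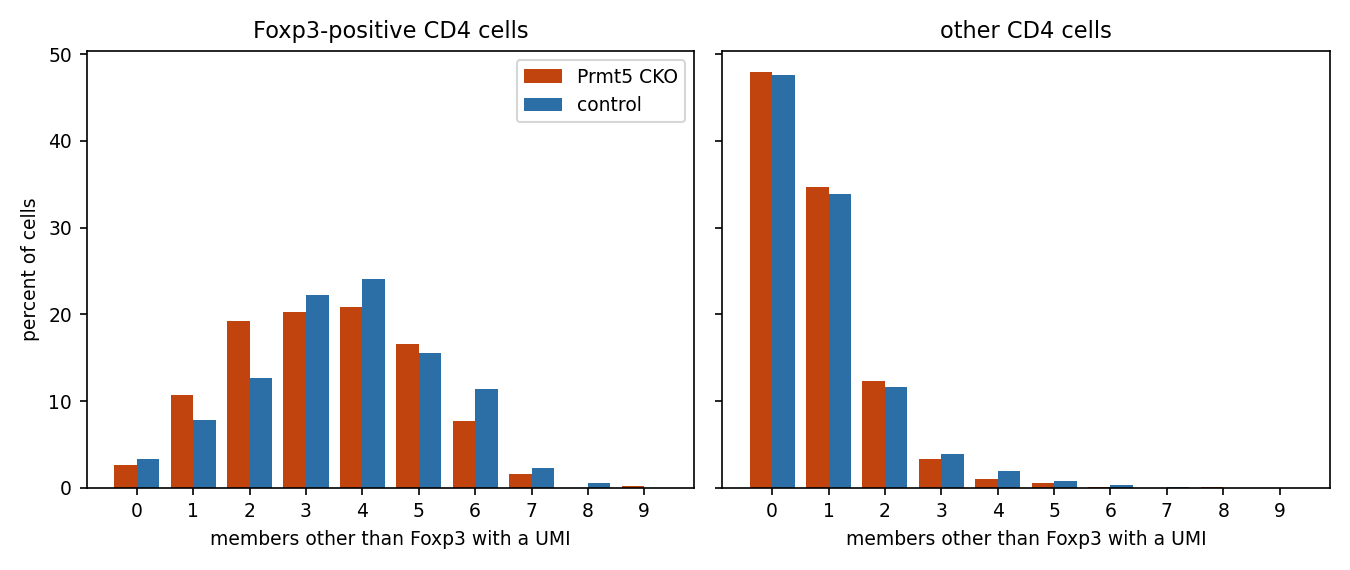
Percent of cells by the number of members other than Foxp3 with a UMI, in Foxp3-positive CD4 cells (left) and other CD4 cells (right), for the Prmt5 CKO library (orange) and the control library (blue). Foxp3-positive cells peak at 4 members in both libraries, and other CD4 cells peak at 0.

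Genes that work beside the members were followed in Foxp3-positive CD4 cells as well, in lists that also hold some members, with the 8.14% of all genes past 1.5-fold as background. Around GARP and TGF-beta, 1 of 11 measured genes was higher and 2 were lower (median log2 -0.13). Itgb8, part of the integrin that frees TGF-beta from GARP, had 10.4 CPM in CKO and 24.3 CPM in control (-1.23), and its partner chain Itgav had 39.1 and 66.8 CPM (-0.77). Nrros, which holds latent TGF-beta on other cells, had 131 UMIs in CKO and 72 UMIs in control (0.86). Of 5 measured genes of extracellular adenosine, 0 were higher and 2 lower, at a median of -0.35. Besides Nt5e the lower one was Slc29a1, a nucleoside transporter, with 19.1 CPM in CKO and 29.9 CPM in control (-0.65). The list for the IL-33 receptor route had 6 measured genes, with a median of -0.18. Il1rl1 was the higher one. The lower one was Nfil3, the leucine zipper factor, which was listed there but is not a receptor gene.

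Anergy-associated genes counted 0 higher and 2 lower of 5 measured, with a median of -0.55. These were Nt5e and Nrp1, the receptor neuropilin-1 of thymus-derived regulatory cells, with 43.6 CPM in CKO and 89.0 CPM in control (-1.03). Surface and suppressive genes of regulatory cells counted 2 higher and 6 lower of 16 measured, with a median of -0.11. Il10, an inhibitory cytokine, had 9 UMIs (3.12 CPM) in CKO and 49 UMIs (17.0 CPM) in control (-2.45, interval -3.66 to -1.41). The activation marker Cd83 had 28.8 and 71.3 CPM (-1.31), and the inhibitory receptor Lag3 had 6.58 and 13.9 CPM (-1.08). Ctla4, Icos and Itgb8 were the other lower ones. The higher ones were Penk, at 84.9 CPM in CKO and 42.1 CPM in control (1.01), and Itgae (0.71). Transcription factors of regulatory cells counted 1 higher and 1 lower of 20. These were Id2 (246.6 CPM in CKO and 159.7 CPM in control, 0.63) and Nr4a3 (42.3 and 80.4 CPM, -0.93), while Stat5a stood at -0.46 and Ikzf3 at 0.42.

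Effector genes of regulatory cells counted 6 higher and 2 lower of 13 measured, with a median of 0.27. Gzmb, a cytotoxic granule protease, had 74.8 CPM in CKO and 25.7 CPM in control (1.54), Lgals1 1062 and 423 CPM (1.33), S100a6 1217 and 493 CPM (1.30), and Klrg1 433 and 194 UMIs (1.15). The lower ones were Maf (-0.82) and Icos (-0.60). Genes of resting regulatory cells counted 0 in either direction of 8, with Ccr7 at -0.40, Lef1 at 0.30 and Klf2 at -0.20. Genes known to be lower in regulatory than in other CD4 cells counted 1 higher of 7, Igfbp4 (0.83), and Il7r stood at 0.50. In the Ikaros family 0 of 5 passed the fold, with Ikzf4 at 0.46 and Ikzf3 at 0.42. Of genes known from Helios-positive CD8 cells 1 was higher and 1 lower of 5, Klrd1 (0.99) and Nrp1. Of the genes of dissociation stress 0 of 11 passed the fold in Foxp3-positive cells (median -0.12).

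The same lists in CD8 cells, where 7.74% of all genes passed the fold, gave 7 higher and 0 lower of 13 effector genes (median 0.76). In the Ikaros family 2 of 5 were higher and 0 lower there, Ikzf2 and Ikzf4, and Ikzf3 stood at 0.47. Of 9 measured genes of Helios-positive CD8 cells 3 were higher and 1 lower. Besides Ikzf2 these were the lectin receptors Klrk1 (44.7 CPM in CKO and 12.1 CPM in control, 1.88), Klrc1 (29.2 and 8.25 CPM, 1.82) and, lower, Klra7 (0.389 and 3.23 CPM, -3.05). Klrk1 was not higher in the CD8 cells with an Ikzf2 UMI. It had 26.2 CPM in Ikzf2-positive and 56.9 CPM in Ikzf2-negative CKO cells, and 11.7 and 12.3 CPM in such control cells. These sets mix the CD8 classes. In naive-like CD8 cells alone Klrk1 had only 0.729 and 1.47 CPM in CKO and 0.350 and 0.750 CPM in control. The part of the class mix in the Klrk1 values was not tested. In control cells Klra7 was higher in Ikzf2-positive cells, with 7.31 CPM against 1.90 CPM in Ikzf2-negative ones. In CKO it had 0.590 and 0.257 CPM. A UMI was seen in 0.161% of 620 and 0.0935% of 1069 CKO cells, too few to read a direction.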

How the data were processed

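Splenic CD3+ T cells of Prmt5 CKO and control mice were measured in 1 library each. The authors deposited raw UMI counts per gene and cell barcode. Per the submitters' processing notes, CASAVA 1.8, Cell Ranger 3.1.0 and Seurat 2.3.4 were used, with the mm10 build. Their roles and the strand setting are not given in the sources used here. Groups were taken from the sample titles. The members and gene lists were chosen with earlier results of these data known.

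Cells were kept at 500 genes or more and below 10% of mitochondrial UMIs, 7660 of the CKO and 6712 of the control library, with median depths of 6045 and 6282 UMIs. They were clustered with Scanpy 1.11.5 (2000 variable genes, 30 principal components, 15 neighbours, Leiden resolution 1). Clusters were named from the shares of their cells with a UMI of marker genes, of which Foxp3 is the only member. Class names were thus rebuilt and are not the authors'. UMIs were summed over the cells of a set and divided by the set's total. Intervals (SciPy 1.17.1) are exact Poisson for levels, exact Clopper-Pearson for shares and conditional binomial for ratios, at 95%, and cover counting error only. UMIs of a cell set are not replicates, and no p-value was computed. Genes with at least 50 UMIs over both sets were measured. A gene was counted past 1.5-fold between libraries and past 2-fold between Foxp3-positive and other cells, and a count of 0 was taken to allow 3 counts. Shares of cells were also computed after thinning to 2000 UMIs per cell. Of the lists, the text names up to 4 genes each, those with the largest log2 ratios and intervals off 0, and of genes outside the lists the 10 with the widest gap at Foxp3 and the 5 most alike in pattern. Genes added to this rule were chosen after their values were seen, and 1 gene that the rule names is not reported here. The ratio step was tested on simulated data.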

Additional observations from a re-analysis of the deposited data

How the results depend on the processing

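With 1 library per group no library could be left out and no difference between mice could be measured, so genotype and library cannot be told apart. No paired analysis was possible because the groups share fewer than 2 replicate numbers. The number of members past 1.5-fold between libraries in Foxp3-positive CD4 cells, 3 as reported, was 5 with gates on Cd4, Cd8a and Cd8b1 UMIs in place of clusters and 5 in cells with a Y-linked UMI. Under the same alternatives the log2 ratio of Ikzf2 in CD8 cells, 0.90 as reported, was 0.76 and 0.76, and it was 1.04 in naive-like CD8 cells alone. The ratio of Foxp3-positive shares, 0.945 as reported, was 1.06 with at least 2 Foxp3 UMIs, 0.864 with the stricter cell filter (unthinned 0.833, interval 0.704 to 0.987) and 0.848 in cells with a Y-linked UMI. In the 11 alternatives run for Foxp3-positive cells, Nt5e ranged from -1.47 to -0.84, Nfil3 from -2.03 to -1.37 and Il1rl1 from 1.22 to 3.50, each past 1.5-fold in all 11. For Il1rl1 the 11 include the Il2ra-led Treg-like cluster alone, where its interval was too wide to read. Izumo1r passed it in 3 and Lrrc32 in 2. The 2 choices added after seeing the data were leaving out the naive-like CD4 cluster held mainly by the CKO library and keeping the Il2ra-led Treg-like cluster alone. Depth limits Il1rl1 most, at 29 UMIs in control Foxp3-positive cells.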
